A study of Mus musculus with 4 samples.

Results

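The genes described here are 34 enzymes, regulators and transporters of cholesterol and fatty acid synthesis, chosen by name from the table of RPKM values (reads scaled by transcript length and by the size of the library). All 34 were found among 16608 named genes, and where a symbol had several transcript entries the most abundant was used, by its mean over the 4 libraries. The RNA came from mouse embryonic fibroblasts (MEFs, cultured connective tissue cells) of 2 labelled genotypes, wild type (Mll1+/+) and Mll1-/-, grown in medium with serum. Mll1, now named Kmt2a, encodes a histone methyltransferase. For 4 hr the cells were given either control solution or the inflammatory cytokine TNF alpha (tumour necrosis factor), at 10 ng/ml in the series' design text, while the treatment protocol gives another unit. Material from 3 treatments was pooled before sequencing, so each of the 4 groups is 1 library. No difference below could be tested against a spread between replicates, and every value describes these libraries. The labels do not say how many embryos or cell lines stand behind a genotype, so a difference between genotypes cannot be told apart from a difference between lines.

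Cells make cholesterol from acetyl-CoA through mevalonate, farnesyl pyrophosphate, squalene and lanosterol, and make fatty acids from cytosolic acetyl-CoA, which are then elongated and desaturated. Both routes are driven by the sterol regulatory element-binding proteins (SREBPs, genes Srebf1 and Srebf2), which Scap escorts to the Golgi for activation when membrane sterol is low and which Insig1 holds back in the endoplasmic reticulum when it is high. Sterol surplus acts through the liver X receptors, whose known targets include the efflux pump gene Abca1.

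Library sizes, as recovered from the steps between low RPKM values, were 27728647 and 27977248 reads for wild type without and with TNF, and 20081869 and 19306506 for the libraries labelled Mll1-/-. Kmt2a itself stood at 1.85 and 2.11 RPKM in wild type and at 2.02 and 1.66 in the libraries labelled Mll1-/-. The labels do not say which part of the gene was removed, and the level of the whole entry was not lower in the Mll1-/- control, so genotype is given below as labelled. Of 10 fibroblast markers found, 6 reached 1 RPKM in each wild-type library and 9 in each Mll1-/- library. In wild type Dcn was listed at 0 and Col3a1 stood at 0.532 and 0.296 RPKM. Of 4 endothelial and 4 epithelial markers found, 0 reached 1 RPKM in any library, and of 3 macrophage and blood markers only Cd14 did, at 23.3 and 25.6 RPKM in wild type and 9.28 and 11.9 in Mll1-/-.

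A gene was counted as higher or lower when its log2 ratio of RPKM + 0.5 was 1 or more in size (2-fold on that scale), and the comparison covered the 14389 genes or unnamed entries that reached 1 RPKM in some library. Of the 34 genes, 33 met that minimum. Tm7sf2, a sterol reductase gene, did not, at 0.386 and 0.382 RPKM in wild type and 0.499 and 0.623 in the libraries labelled Mll1-/- (15 to 18 reads). Abca1 and the lipoprotein lipase gene Lpl met it only through the libraries labelled Mll1-/-, so a difference between genotypes was built into their inclusion. Intervals beside a fold are 95% exact binomial (Clopper-Pearson) intervals of the ratio of reads, and they cover counting error only.

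The levels of these genes covered most of the range of the compared genes, from Lpl, above 0.8% of them in the wild-type control, and Scd1, above 35.5%, to Scd2. Scd2, a stearoyl-CoA desaturase, was the highest of the 34 in every library, at 163 and 145 RPKM in wild type and 206 and 163 in the libraries labelled Mll1-/-. Its wild-type control level exceeded that of 92.1% of the compared genes. The summed RPKM of the 34 genes was 1591 and 1491 in wild type without and with TNF, and 1585 and 1420 in the libraries labelled Mll1-/-. On the deposited scale the sum was thus nearly the same in the control libraries of the genotypes, and lower with TNF in each. The likeness of the controls depends on that scale. Making library sums equal without the 20 most abundant genes shifts the median of all genes in the Mll1-/- control by a log2 of 0.278 against wild type.

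**Figure D1:**
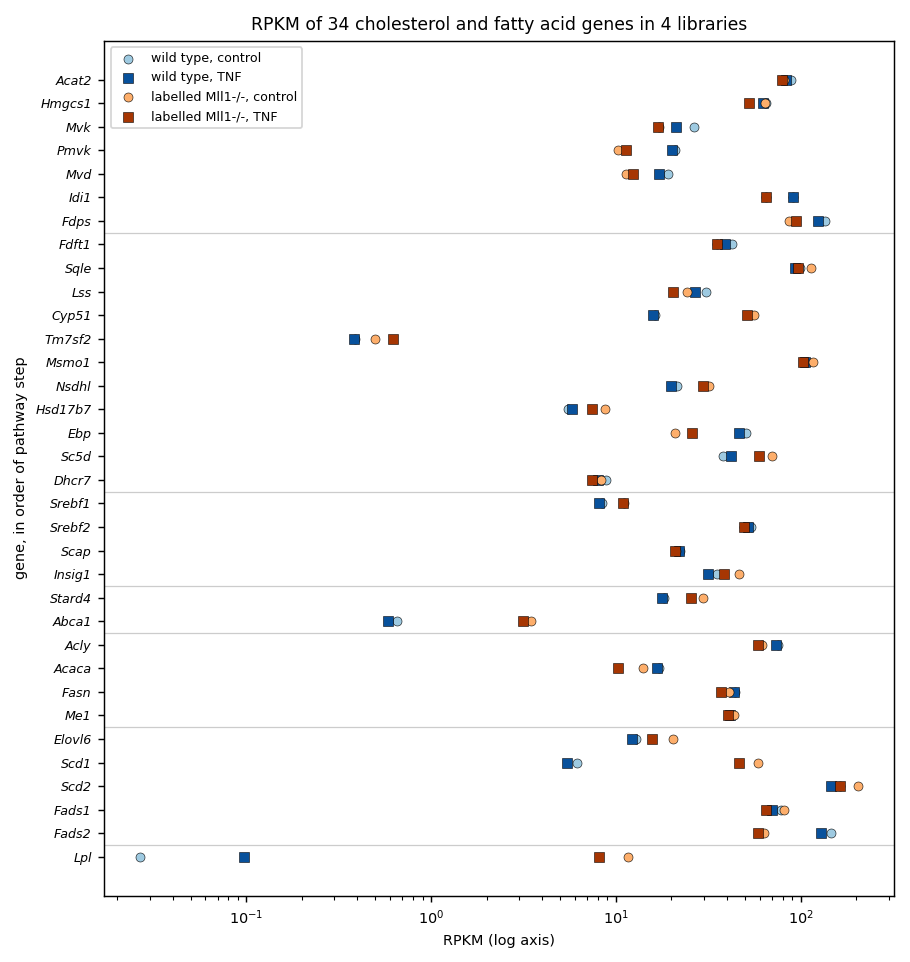
RPKM (log axis) of each of the 34 genes, in order of pathway step, with 1 point per library (circles, control; squares, TNF; blue, wild type; orange, labelled Mll1-/-). Most genes lie between 5 and 206 RPKM in all libraries, and Cyp51, Scd1, Abca1 and Lpl are further right in the libraries labelled Mll1-/-.

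Between the genotypes the pathway was not shifted as a block. Without TNF, 4 of the 33 genes were higher in the library labelled Mll1-/- (Lpl, Scd1, Abca1 and Cyp51), beside 7.11% of all compared genes, and 2 were lower (Ebp and Fads2), beside 7.99%. With TNF the same 4 were higher, beside 6.71% of all genes, and 1 was lower (Fads2), beside 4.5%. The members' median log2 difference was -0.02 without TNF and -0.07 with it, against -0.07 and -0.05 over all genes. Beside the background shares these counts say nothing particular about the pathway. The values ran from -1.26 (Ebp) to 4.52 (Lpl) without TNF and from -1.14 (Fads2) to 3.85 (Lpl) with it.

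The early steps, from acetyl-CoA to farnesyl pyrophosphate, stood lower in the libraries labelled Mll1-/-. Fdps, which makes farnesyl pyrophosphate, was at 135 and 124 RPKM in wild type without and with TNF, and at 86.1 and 94.9 in Mll1-/-. Idi1, the isomerase that supplies the second building block of that reaction, was at 90.4 and 90.6 RPKM in wild type and 64.7 and 64.9 in Mll1-/-. For these genes the wild-type pair and the Mll1-/- pair did not overlap, and neither passed the size rule (log2 -0.64 and -0.48 without TNF). The share of all compared genes without overlap is not given here. Here and below, a lack of overlap therefore only describes the values and is not a result about the pathway.

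Mvk, Pmvk and Mvd encode the kinases and the decarboxylase that turn mevalonate into isopentenyl pyrophosphate. Mvk was at 26.4 and 21.1 RPKM in wild type and 17.2 and 17 in Mll1-/-. Pmvk was at 20.8 and 20.04 RPKM in wild type and 10.2 and 11.4 in Mll1-/-, a log2 difference of -0.99 without TNF that lies just inside the size rule. Mvd was at 19.1 and 17.1 RPKM in wild type and 11.4 and 12.4 in Mll1-/-. Each of the 3 was lower in both libraries labelled Mll1-/- than in either wild-type library. Acat2, the acetyl-CoA acetyltransferase at the head of the route, and Hmgcs1, the synthase that follows it, differed little. Acat2 was at 88.3 and 82.9 RPKM in wild type and 81.6 and 79.3 in Mll1-/-. Its reads could be divided with its close relative Acat3, since the counting method is not known.

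Hmgcs1 was at 64.9 and 62.2 RPKM in wild type and 64.0 and 52.3 in Mll1-/-, where the TNF library was the low value. Its promoter is shown because Hmgcs1 is a textbook SREBP target and was the only gene of 26 with a promoter in the RefSeq table that held the sterol regulatory element searched for, TCACNCCAC. That match and each CCAAT box (the letters bound by NF-Y, a partner of SREBP) are in capitals, on either strand, so that a box on the other strand reads ATTGG. The stretch is the 250 bases before the start site of the gene, from RefSeq on GRCm38.p6, chr13:119690101-119690350, plus strand.
Hmgcs1: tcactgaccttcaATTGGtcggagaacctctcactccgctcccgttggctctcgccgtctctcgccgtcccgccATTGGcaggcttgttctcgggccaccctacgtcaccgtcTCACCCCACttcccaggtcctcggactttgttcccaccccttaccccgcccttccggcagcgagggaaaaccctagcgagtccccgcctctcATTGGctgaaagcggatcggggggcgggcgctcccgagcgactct

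As a group, 7 of 7 mevalonate genes had a log2 difference below 0 without TNF (median -0.61) and 7 of 7 with TNF (median -0.38), beside 55.0% and 54.8% of all genes. The group's summed RPKM was 445 in the wild-type control and 335 in the Mll1-/- control. Scaling matters to the count: when library sums were made equal without the 20 most abundant genes, which shifts the median of all genes by 0.278, 5 of 7 were below 0 without TNF, Acat2 (0.18) and Hmgcs1 (0.28) being above. Median-ratio and upper-quartile scaling each left 6 of 7 below 0. Relative to the median of all genes, which 50% of genes lie below, 6 of 7 were lower without TNF and 7 of 7 with it. Transcript length moves with this difference, because shorter transcripts as a class were lower in the Mll1-/- control (a median of -0.28 in the length decile around 1206 bases, where Pmvk and Fdps lie, against 0.25 in the longest). With the trend with length removed, Pmvk was at -0.78 and Fdps at -0.42, and the group median was -0.50.

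From squalene onward the enzymes diverged. Fdft1, squalene synthase, was at 42.6 and 38.9 RPKM in wild type and 35.2 and 35.2 in Mll1-/-. Sqle, the epoxidase that is a control point of the route, was at 99.0 and 93.2 RPKM in wild type and 114 and 97 in Mll1-/-. Lss, which closes the ring to lanosterol, was at 30.7 and 26.7 RPKM in wild type and 24.4 and 20.4 in Mll1-/-. Of these only Sqle had overlapping genotypes, and none of the 3 passed the size rule.

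Cyp51, the demethylase that acts on lanosterol, differed most. It was at 16.3 and 16.0 RPKM in wild type and at 55.9 and 51.4 in the libraries labelled Mll1-/-, 3.43-fold higher without TNF (interval 3.26 to 3.62) and 3.21-fold with it (3.05 to 3.39). Ebp, the sterol isomerase further down the same route, went the other way. It was at 50.8 and 46.5 RPKM in wild type and at 20.9 and 26 in Mll1-/-, 2.44-fold lower without TNF (2.24 to 2.65) and 1.79-fold lower with it (1.65 to 1.94). The ratio of Ebp to Cyp51 within a library, which no scaling between libraries can alter, was 3.12 and 2.91 in wild type and 0.373 and 0.506 in Mll1-/-. That pair of genes was chosen after the values were seen. With the length trend removed Cyp51 was at 1.56 and Ebp at -1.16 without TNF, and with the 20 most abundant genes left out Ebp was at -0.97, inside the size rule.

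The promoters of this pair are shown because the genes belong to 1 pathway and stood on opposite sides of the genotype comparison. Each is the 250 bases before the start site from RefSeq on GRCm38.p6, both on the minus strand, with CCAAT boxes of either strand in capitals. Cyp51 is at chr5:4104698-4104947 and Ebp at chrX:8193513-8193762.
Cyp51: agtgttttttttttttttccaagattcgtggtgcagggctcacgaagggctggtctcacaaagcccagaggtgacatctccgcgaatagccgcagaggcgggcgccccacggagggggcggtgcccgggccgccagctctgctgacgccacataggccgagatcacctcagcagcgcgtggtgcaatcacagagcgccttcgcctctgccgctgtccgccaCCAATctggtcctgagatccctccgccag
Ebp: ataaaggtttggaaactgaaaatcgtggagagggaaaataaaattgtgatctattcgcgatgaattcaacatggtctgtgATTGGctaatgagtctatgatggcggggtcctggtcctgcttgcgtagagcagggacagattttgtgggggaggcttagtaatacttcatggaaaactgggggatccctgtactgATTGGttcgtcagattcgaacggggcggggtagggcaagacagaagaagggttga
Each window held at least 1 box: 1 match 29 bases before the start in Cyp51, and matches 170 and 55 bases before it in Ebp. Of the 26 genes with a promoter in the table, 20 (76.9%) held CCAAT on either strand within the 300-base window that reaches 50 bases past the start, beside 41.1% of 27025 genes and 43.9% of the 8858 that were also compared here. The sterol element was held by 1 of 26 (3.85%), beside 1.44% of all genes and 1.34% of those compared. Only exact matches within that window were sought, so other forms of the element would be missed. Fdps, Fdft1, Sqle, Stard4, Scd1, Scd2, Fads1 and Lpl had no promoter to search. The liver X receptor element, AGGTCA repeated in the same direction with 4 bases between, was held by 0 of 26, beside 0.0148% of all genes.

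The remaining late enzymes were level or higher in Mll1-/-. Nsdhl, which works in the demethylation of sterols, was at 21.5 and 20 RPKM in wild type and 31.9 and 29.7 in Mll1-/- (1.48-fold, 1.37 to 1.60 without TNF). Hsd17b7, its partner reductase, was at 5.52 and 5.80 RPKM in wild type and 8.78 and 7.43 in Mll1-/-. Sc5d, a sterol desaturase, was at 38.1 and 42.2 RPKM in wild type and 69.8 and 59.4 in Mll1-/- (1.83-fold, 1.77 to 1.90 without TNF). For these 3 genes both Mll1-/- libraries lay above both wild-type libraries. Msmo1, the methylsterol oxidase, was at 108 and 106 RPKM in wild type and 117 and 103 in Mll1-/-. Dhcr7, the reductase of the final step of one branch, was at 8.85 and 8.03 RPKM in wild type and 8.33 and 7.39 in Mll1-/-. The genotypes overlapped for Msmo1 and Dhcr7. Of the 10 genes from squalene to cholesterol that were compared, 4 were below 0 without TNF (median 0.16) and 5 with it (median 0.01), beside 55.0% and 54.8% of all genes.

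The regulators of the pathway stood close to level. Srebf2, whose product mainly drives cholesterol genes, was at 54.0 and 51.9 RPKM in wild type and 49.5 and 49.1 in Mll1-/-. Scap was at 22.3 and 21.9 RPKM in wild type and 21.3 and 20.8 in Mll1-/-. Srebf1, whose product mainly drives fatty acid genes, was at 8.37 and 8.12 RPKM in wild type and 11.1 and 11.0 in Mll1-/- (1.33-fold, 1.21 to 1.45 without TNF). Insig1, itself an SREBP target, was at 35.1 and 31.6 RPKM in wild type and 46.3 and 38.4 in Mll1-/-. All 4 log2 differences lay between -0.13 and 0.41 in both comparisons. The genotypes did not overlap for any of these 4 genes, which says little. It held even for Scap, at -0.07 in both comparisons, beside medians of -0.07 and -0.05 over all genes.

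Among the sterol transporters Abca1, which pumps cholesterol onto apolipoprotein, was at 0.657 and 0.582 RPKM in wild type (187 and 167 reads) and 3.46 and 3.14 in Mll1-/- (712 and 622 reads). That is 5.26-fold higher without TNF (4.47 to 6.21) and 5.40-fold with it (4.54 to 6.44). Stard4, which carries cholesterol between membranes, was at 18.3 and 17.8 RPKM in wild type and 29.7 and 25.4 in Mll1-/-. Its log2 differences of 0.68 and 0.50 did not pass the size rule, and the genotypes did not overlap.

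**Figure D2:**
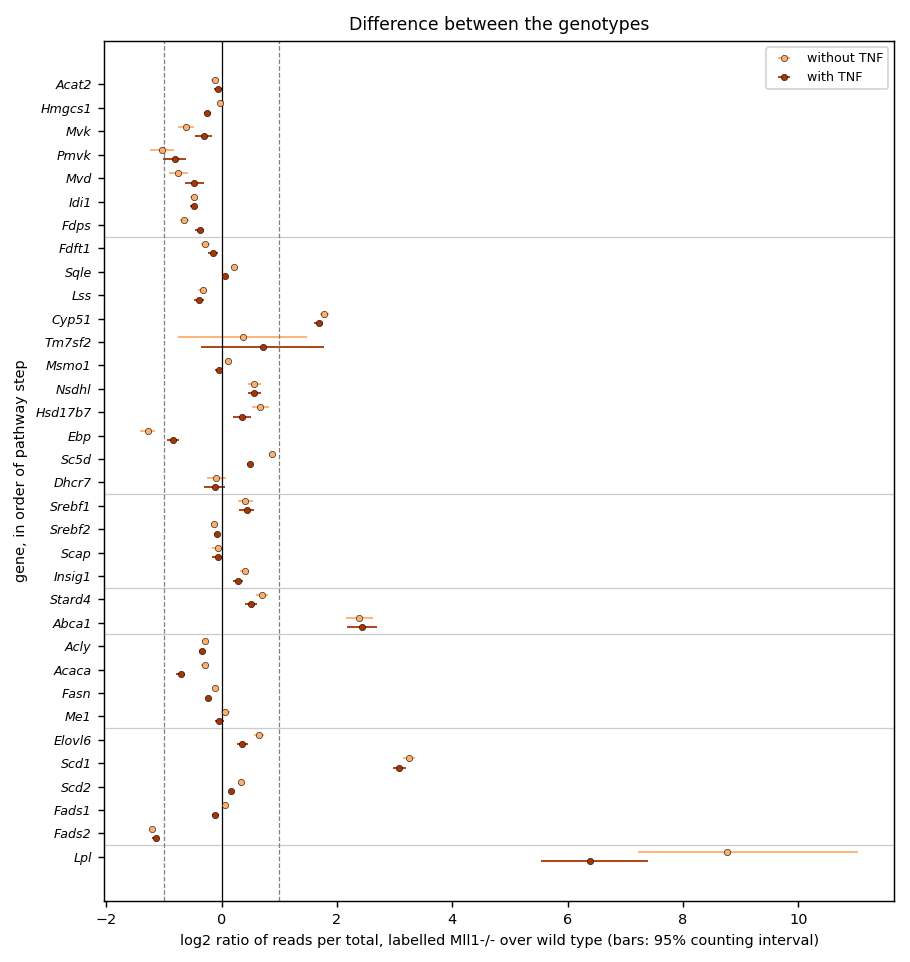
Log2 ratio of reads per library total, labelled Mll1-/- over wild type, for each of the 34 genes without TNF (light) and with TNF (dark), with 95% counting intervals as bars and dashed lines at -1 and 1. The mevalonate genes at the top lie at or left of 0. Cyp51, Abca1, Scd1 and Lpl lie to the right of 1 and Fads2 to the left of -1 in both comparisons. Tm7sf2 has wide bars because it has few reads, and Lpl because it has few in wild type.

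Of the enzymes that build the fatty acid chain, Acly, Acaca and Fasn were lower in the libraries labelled Mll1-/-, inside the size rule. Acly, which releases cytosolic acetyl-CoA from citrate, was at 75.6 and 73.9 RPKM in wild type and 62.0 and 58.6 in Mll1-/-. Acaca, the carboxylase that commits it to fatty acid synthesis, was at 17.2 and 16.7 RPKM in wild type and 14 and 10.3 in Mll1-/-. Fasn, the synthase, was at 44.2 and 43.3 RPKM in wild type and 40.9 and 36.9 in Mll1-/-. For these 3 genes every Mll1-/- value lay below every wild-type value. Their log2 differences were -0.29, -0.28 and -0.11 without TNF, and -0.33, -0.68 and -0.23 with it. The alternatives moved the differences without TNF in both directions. With the 20 most abundant genes left out they were 0.01 for Acly, 0.01 for Acaca and 0.19 for Fasn. With the length trend removed they were -0.47, -0.64 and -0.46. The malic enzyme gene Me1, a source of reducing power for the route, was at 41.5 and 41.5 RPKM in wild type and 43.4 and 40.5 in Mll1-/-.

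Among the desaturases the differences between genotypes ran in both directions. Scd1, a stearoyl-CoA desaturase like Scd2, was at 6.17 and 5.48 RPKM in wild type and 58.9 and 46.3 in Mll1-/-, 9.54-fold higher without TNF (8.86 to 10.3) and 8.46-fold with it (7.82 to 9.15). Scd1 made up 3.64% and 3.63% of the summed RPKM of Scd1 and Scd2 in wild type and 22.3% and 22.1% in Mll1-/-. The share was nearly the same with and without TNF in each genotype, and Scd2 stayed the larger part. Because Scd1 and Scd2 are close relatives and the counting method is not known, reads could have been divided between them.

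Fads2 and Fads1 encode the desaturases that make polyunsaturated fatty acids. Fads2 was at 146 and 129 RPKM in wild type and 63.7 and 58.6 in Mll1-/-, 2.29-fold lower without TNF (2.21 to 2.38) and 2.21-fold lower with it (2.12 to 2.29). Fads1 was at 78.2 and 69.6 RPKM in wild type and 81.6 and 64.6 in Mll1-/-. The ratio of Fads2 to Fads1, a pair chosen after the values were seen, was 1.87 and 1.86 in wild type and 0.780 and 0.908 in Mll1-/-. With the 20 most abundant genes left out Fads2 was at -0.89 without TNF, inside the size rule, and with the length trend removed at -1.25. Elovl6, the elongase that acts on palmitate, was at 12.9 and 12.2 RPKM in wild type and 20.3 and 15.6 in Mll1-/- (log2 0.63 and 0.34).

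Lpl, the lipase that frees fatty acids from lipoproteins outside the cell, had the largest ratio of the 34 genes. It had 3 and 11 reads in wild type (0.0267 and 0.0971 RPKM) and 944 and 632 reads in Mll1-/- (11.6 and 8.09 RPKM). The ratio of reads was 434 without TNF (interval 148 to 2110) and 83.3 with it (46.2 to 168). Lpl and Scd1 are also known as genes of fat cells. Of 8 adipocyte markers 3 were found: Pparg, Fabp4 and Plin1. Pparg was at 17.8 and 14.6 RPKM in wild type and 11.0 and 8.34 in Mll1-/-. Fabp4 was at 0.558 and 0.277 RPKM in wild type and 0.308 and 0.962 in Mll1-/-. The lipid droplet gene Plin1 was listed at 0 in 3 libraries and at 0.0276 RPKM in Mll1-/- with TNF. The summed RPKM of the 3 markers, nearly all of it Pparg, was 18.3 and 14.9 in wild type and 11.3 and 9.33 in Mll1-/-. A fat cell character of either genotype was not tested.

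With TNF these genes differed little from control. In wild type 0 of the 33 genes were higher and 0 lower by the size rule, beside 0.521% and 0.0556% of all genes, and their log2 ratios lay between -0.32 and 0.18. Of the 33, 28 were below 0, beside 54.7% of all genes, and the median was -0.08 against -0.02. The count below 0 was 27 to 29 under the other scalings, pseudocounts and filters tried and with the length trend removed. Of the 33 wild-type ratios, the lowest was that of Mvk (26.4 to 21.1 RPKM, 1.25-fold lower, 1.15 to 1.36). Lss (1.15-fold lower, 1.1 to 1.2) followed it. All 5 elongation and desaturation genes were below 0, with Scd2 (163 to 145 RPKM), Fads1 (78.2 to 69.6) and Fads2 (146 to 129) each 1.12-fold or 1.13-fold lower. Sc5d (38.1 to 42.2 RPKM, 1.11-fold, 1.06 to 1.15) stood on the other side of 0. Nothing is known of the spread between repeats of a treatment, so a difference of this size was not separable from it.

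In the libraries labelled Mll1-/- 0 of 33 genes passed the size rule in either direction, beside 0.688% of all genes higher and 0.16% lower. Their log2 ratios lay between -0.50 and 0.31, 28 were below 0, beside 46.9% of all genes, and the median was -0.12 against 0.02. Acaca was 1.37-fold lower (14 to 10.3 RPKM, 1.29 to 1.45), Elovl6 1.30-fold lower (20.3 to 15.6, 1.22 to 1.39) and Scd1 1.27-fold lower (58.9 to 46.3, 1.22 to 1.32). Lpl, at 11.6 and 8.09 RPKM, was 1.44-fold lower (1.30 to 1.59). Scd2 (206 to 163 RPKM) and Fads1 (81.6 to 64.6) were each 1.26-fold lower, and Hmgcs1 (64.0 to 52.3) 1.22-fold lower. All 9 genes of fatty acid synthesis, elongation and desaturation were below 0. The 7 mevalonate genes had a median of 0.00 with 3 below 0, and Ebp was above 0 (20.9 to 26 RPKM, 1.25-fold, 1.13 to 1.38).

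**Figure D3:**
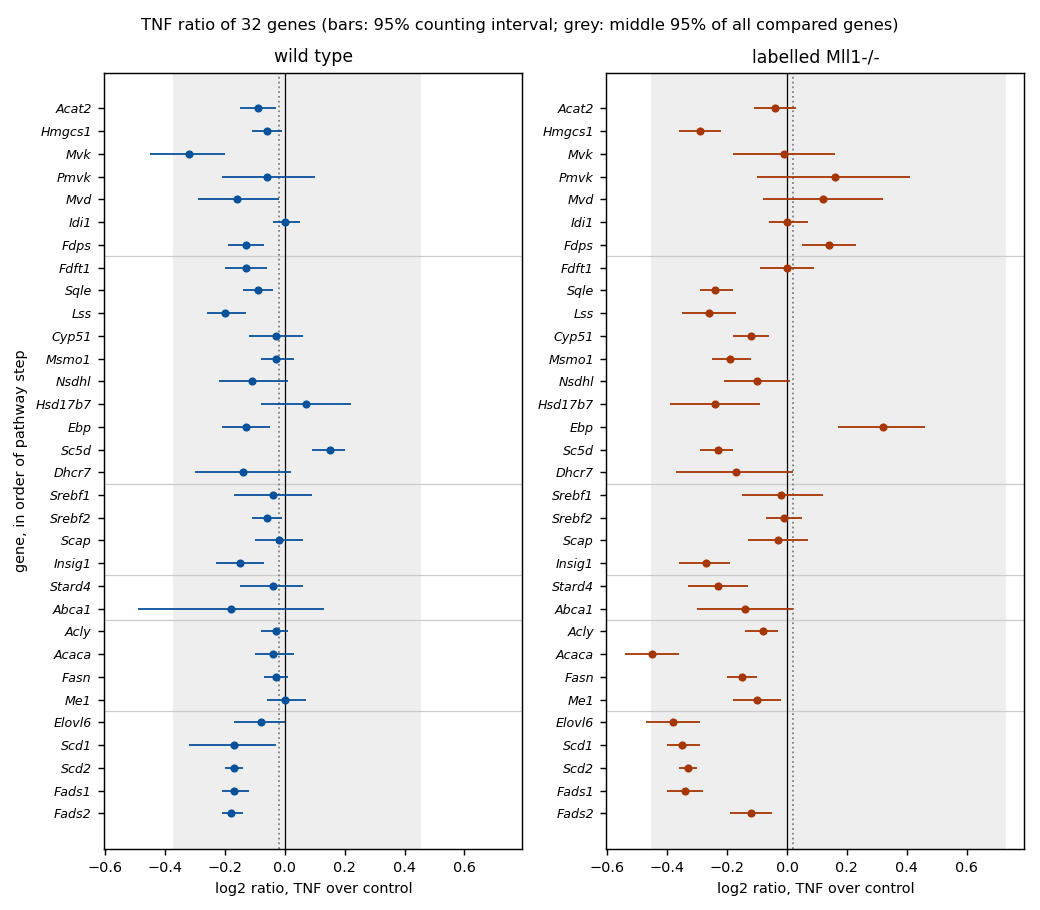
Log2 ratio of reads, TNF over control, in wild type (left) and in the libraries labelled Mll1-/- (right) for 32 genes, with 95% counting intervals. The grey band is the middle 95% of all compared genes (-0.37 to 0.45 and -0.45 to 0.73) and the dotted line their median. Tm7sf2, with few reads, and Lpl, with few reads in wild type, are left out. In Mll1-/- the log2 ratio of Lpl was -0.52, below the band. In both panels the points lie within the grey band or at its lower edge, mostly left of 0.

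Transcript length moves with the TNF ratio in Mll1-/-, and was not tested as a source of it. Over all genes the median TNF ratio in Mll1-/- went from 0.31 in the shortest decile of transcripts to -0.20 in the longest, while in wild type it went from -0.01 to 0.03. Many of the lipid genes are long, with 13 of the 33 in the longest 2 deciles and 0 in the shortest 2. With the trend removed, 22 of 33 rather than 28 were below 0 in Mll1-/-, with a median of -0.09 against 0.02 over all genes. Scaling without the 20 top genes gave 32 below 0, but it also moved the median of all genes to -0.133. Below that median lay 29 of the 33. The share of all genes below 0 is not given here for either setting, so these counts are not a result about the pathway. Once the length trend was removed, Fasn, of 9938 bases, turned from -0.15 to 0.09. Acaca, of 9054 bases, went from -0.43 to -0.20. The elongation and desaturation genes were 5 of 5 below 0 with the trend removed (median -0.18), and Lpl was at -0.39. Of the 4 regulators, 1 was below 0 with the trend removed in place of 4. These group counts also lack a share of all genes beside them, so they only describe the values.

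**Figure D4:**
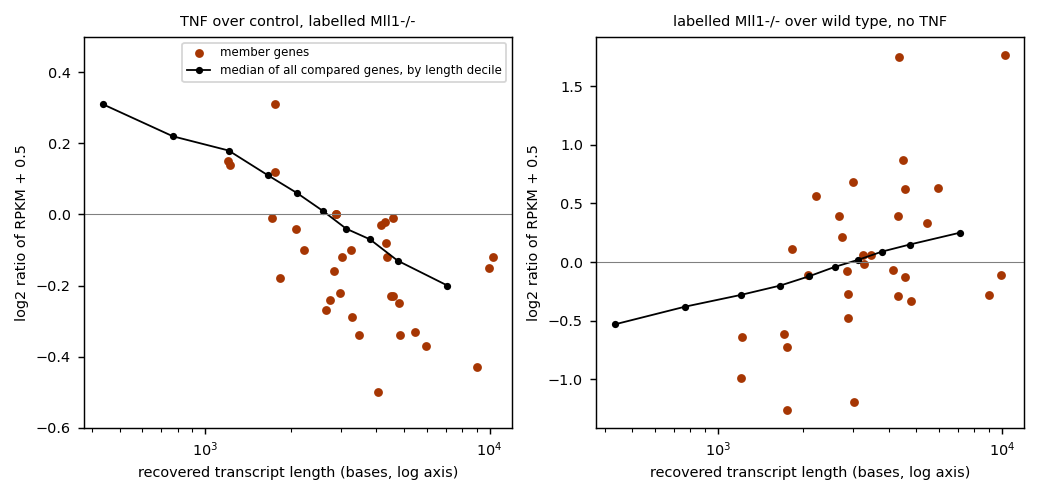
Log2 ratio of RPKM + 0.5 against recovered transcript length (log axis) for TNF over control in the libraries labelled Mll1-/- (left) and for Mll1-/- over wild type without TNF (right); red points are the lipid genes, and the black line joins the medians of all compared genes in 10 length bins. The line falls from 0.31 to -0.20 on the left and climbs from -0.53 to 0.25 on the right; Scd1 and Lpl, above 2 on the right, are left out of that panel.

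The difference between the TNF log2 ratios, Mll1-/- minus wild type, was within 1 for all 33 genes, beside 0.758% of all genes at 1 or more and 0.424% at -1 or less. Its median was -0.06 against 0.03 over all genes. The values ran from -0.68 for Lpl to 0.44 for Ebp. The value of Lpl rests on 3 and 11 wild-type reads and is -2.38 from reads without a pseudocount (interval -4.23 to -0.54). Acaca (-0.40), Sc5d (-0.38) and the mevalonate kinase gene Mvk (0.30) came next in size, and with the length trend removed they were at -0.10, -0.24 and 0.19. Of the 7 mevalonate genes 6 were above 0 (median 0.21), beside 53.3% of all genes, and of the 9 fatty acid genes 8 were below 0 (median -0.16), beside 46.7%. The mevalonate count was 4 of 7 under upper-quartile scaling and also with the 20 most abundant genes left out. With the length trend removed the medians were 0.04 and -0.02.

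Other genes of lipid metabolism, taken from 4 lists of 115 genes written from general knowledge, were read in the same way. Of 25 compared genes for sterol sensing, uptake and the rest of cholesterol synthesis, 0 passed the size rule with TNF in either genotype. Over all genes 0.521% were higher and 0.0556% lower in wild type, and 0.688% and 0.16% in Mll1-/-, so 0 of 25 is near those shares. The endocytic receptor gene Lrp1 was at 12.1 and 11.2 RPKM in wild type and 33.4 and 28.3 in Mll1-/-. That is past the size rule in both genotype comparisons (log2 1.43 and 1.30). Lower by that rule were 0 of the 25, beside 7.99% of all genes without TNF and 4.5% with it. Of 9 compared liver X receptor and efflux genes, 1 was higher in Mll1-/- in each comparison, beside 7.11% of all genes without TNF and 6.71% with it: the sterol efflux gene Abcg1. It had 5 and 9 reads in wild type (0.0310 and 0.0553 RPKM) and 318 and 402 in Mll1-/- (2.72 and 3.58 RPKM), a ratio of 87.8 without TNF (37.2 to 272). Abcg1, like Abca1, was compared only because of its level in Mll1-/-.

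Of 28 compared genes for further steps of fatty acid and glycerolipid synthesis, 1 was higher and 1 lower without TNF, beside 7.11% and 7.99% of all genes, and 1 higher and 2 lower with it, beside 6.71% and 4.5%. Acss2, which makes acetyl-CoA from acetate, was at 4.35 and 4.32 RPKM in wild type and 1.28 and 0.987 in Mll1-/-. Dgat2, which completes triglycerides, was at 1.04 and 0.778 RPKM in wild type and 2.88 and 2.49 in Mll1-/-. Of 26 compared genes for fatty acid oxidation and uptake, 3 were higher and 3 lower without TNF, and 3 higher and 2 lower with it, beside the same shares of all genes. The higher genes were the lipoprotein receptor gene Vldlr, the lipase gene Lipe and the lipase maturation gene Lmf1. Vldlr was at 0.521 and 0.494 RPKM in wild type and 6.13 and 5.42 in Mll1-/- (11.8-fold, 9.72 to 14.3 without TNF), Lipe at 0.312 and 0.322 against 3.35 and 3.02, and Lmf1, whose product folds lipoprotein lipase, at 1.01 and 1.16 against 3.29 and 3.95. Vldlr and Lipe met the minimum of 1 RPKM only through Mll1-/-, so their difference was built into their inclusion. The lower genes were Acadm and Acaa2, enzymes of mitochondrial beta-oxidation, and Pdk4, a kinase that restrains glucose oxidation. Acadm was at 43.5 and 39.7 RPKM in wild type and 15.7 and 15.7 in Mll1-/-. Acaa2 was at 53.7 and 45.3 RPKM in wild type and 23.7 and 23.8 in Mll1-/-, and Pdk4 at 3.13 and 4.35 against 0.692 and 0.810, having met the minimum only through wild type. Angptl4, which inhibits lipoprotein lipase, was the 1 gene of the 4 lists past the size rule with TNF. It was at 0.598 and 1.78 RPKM in Mll1-/- (23 and 66 reads, log2 1.06), beside 0.885 and 1.90 in wild type (0.80). By reads without a pseudocount Angptl4 was 2.98-fold higher in Mll1-/- (1.83 to 5.03) and 2.15-fold in wild type (1.51 to 3.11). The difference of these log2 ratios was 0.47 (interval -0.37 to 1.32), so a response in 1 genotype only is not shown. Over all genes 0.688% were higher with TNF in Mll1-/- and 0.521% in wild type.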

How the data were processed

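The deposited table gives RPKM values for 27344 transcript entries in 4 libraries, per the file headers, and the authors made them before deposit. The submitters' processing notes name TopHat and DESeq, with no version or role. The genome build, annotation and counting program: not given in the sources used here. Strand is not mentioned, so overlapping genes (among them Ctsb beside Fdft1, Rai1 beside Srebf1, Tada2a beside Acaca, Vps51 beside Tm7sf2) cannot be separated.

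Entries were named by accession, 20849 through RefSeq on GRCm38.p6 and 95 through GENCODE. Library totals came from the worth of 1 read at reference lengths. A transcript length giving whole reads in all libraries, within 0.0001 reads, was found for 27344 entries. Where several lengths would do, the multiple nearest the reference length was used (Lss, Hsd17b7, Sc5d and Fads2 among the members). Entry reads summed to 1.667 to 1.768 times the totals. The method was tested on data simulated from the recovered lengths, which were also given to it as the reference lengths. That test therefore could not show how it does where the reference length differs. Of 20661 entries with a reference length, 79.0% had a recovered length within 10% of it. Python 3.11.15, pandas 2.3.3 and scipy 1.17.1 were used.

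Values are differences of log2(RPKM + 0.5), which understates the change of low genes. With 1 library per group no test was possible. All 34 members are described, and genes of the 4 further lists are named only if they passed the size rule and reached 3 RPKM in the higher library, or had the highest or lowest ratio of their list. The members and lists were chosen with earlier results of these data known. Alternatives were other pseudocounts, filters, scalings, entries and size rules, removal of the median in 20 length bins, and, chosen after seeing the data, the ratio of reads. A result of the further lists is not reported here.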

Additional observations from a re-analysis of the deposited data

Results flagged for a closer look

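A few genes stood on opposite sides of 0 in a pair of comparisons of the same kind, with counting intervals that excluded 0 on each side. None of these differences was tested against replicates, since each group is 1 library. With TNF, Ebp had a log2 ratio of reads of 0.32 in the libraries labelled Mll1-/- and -0.13 in wild type, and Fdps had 0.14 and -0.13. Sc5d had -0.23 in Mll1-/- and 0.15 in wild type. Between the genotypes, Fads1 had a log2 difference of -0.11 with TNF and 0.06 without. With the length trend removed, Fdps was at -0.01 with TNF in Mll1-/- and Fads1 at -0.06 without TNF, so that these no longer stood on opposite sides, while Ebp (0.23 and -0.09) and Sc5d (-0.09 and 0.13) did.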

How the results depend on the processing

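No paired analysis was possible because each group is 1 library. Lpl, Scd1, Abca1 and Cyp51 stayed higher in Mll1-/- under every alternative run, except that a minimum of 5 RPKM left Abca1 out. With the 20 most abundant genes left out, 0 rather than 2 genes were lower without TNF, and 5 rather than 4 were higher, Sc5d (1.16) being added. A size rule of 0.58 on the log2 scale gave 8 higher and 6 lower without TNF, 4 lower with TNF and 1 lower in the difference of responses. The share of all genes past that looser rule is not given here, so these counts are not a result about the pathway. A pseudocount of 0.1 gave 1 lower in that difference (Lpl), and the ratio of reads with no pseudocount gave 1 higher with TNF in wild type and 1 lower in that difference, both Lpl. Pmvk passed the size rule as lower without TNF with a pseudocount of 0.1, with RPKM summed over its entries and with the ratio of reads. Leaving out the 20 most abundant genes also shifted the median of all genes by -0.15 for TNF in Mll1-/-, by 0.103 between genotypes with TNF and by -0.174 for the difference of responses. Depth limits Lpl, Tm7sf2 and Abcg1, with 3 to 18 reads in some libraries.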
